A study of Danio rerio with 6 samples.

Results

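The genes described here are 38 zebrafish genes of DNA replication and cell division, taken by symbol from a table of 30841 genes. All 38 were in the table. They comprise 14 replication genes, 22 genes that act from late S phase through mitosis and cytokinesis, and 2 cyclins of G1 and of G1/S entry. For a gene with several transcripts, the transcript with the highest count over all libraries stood for the gene.

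RNA came from adult caudal fins at 14 days after amputation, sorted by fluorescence into 3 groups of 2 libraries each. Osteoblasts were sorted as EGFP-negative and sp7-positive, whereas the sort took EGFP-positive cells for both progenitor groups, which were sp7-positive for osteogenic mesenchymal progenitors (OMP) and sp7-negative for chondrogenic ones (CMP). All fish, of a background derived from the Tubingen strain, carried sox9a:Cre-ERt2 together with cryaa:EGFP, an Ola.Actb reporter in which loxp-flanked TagBFP precedes EGFP, and an Ola.Sp7:mCherry reporter. Cre-ERt2 is a recombinase made active by tamoxifen, and here the sox9a promoter drives it. The number of fish behind each library is not in the labels, nor is it stated that replicates 1 and 2 are different animals. The p-values therefore measure the spread between these libraries, which may be technical.

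A dividing cell first licenses its replication origins, when Cdc6 and Cdt1 load the ring of Mcm proteins, and then copies its DNA behind the Mcm helicase with the clamp Pcna. Cyclin-dependent kinases with cyclins of the A and B types then drive the cell into mitosis, where kinesins and Aurora kinases build and divide the spindle. Replication genes are expressed ahead of S phase and mitotic genes peak later, in G2 and M. In regrowing zebrafish fins, new bone is made by osteoblasts that can divide, and the mesenchyme of the blastema divides as well.

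The libraries held 3915569 to 5281896 reads with 1 transcript per gene. A list of 9 osteoblast genes took 22.1% and 15.6% of reads in osteoblasts (replicates 2 and 1), against 0.507% and 0.517% in OMP and 0.110% and 0.105% in CMP. Within that list alpl went the other way, with 131 and 131 reads in osteoblasts, 611 and 587 in OMP and 457 and 165 in CMP. Reads of sp7 itself, the osteoblast transcription factor gene, numbered 762 and 491 in osteoblasts, against 53 and 38 in OMP and 13 and 9 in CMP. The reporter reads did not follow the sort labels throughout. The mCherry transgene had 8136 and 2455 reads in osteoblasts, against 62 and 6 in OMP, which is labelled sp7-positive, and 47 and 3 in CMP. EGFP had 4146 and 2434 reads in the osteoblasts, which are labelled EGFP-negative, against 6998 and 3225 in OMP and 4802 and 3931 in CMP. Epidermal genes (11 of 11 with reads) took 0.296% to 0.303% of reads in osteoblasts, 0.647% to 0.885% in OMP and 1.18% to 1.47% in CMP. Of this list, only the keratin genes krt4, krt15 and krt91 had that order without overlap of the groups. Among the others, ppl was highest in OMP, with 198 and 280 reads against 18 and 35 in osteoblasts and 94 and 152 in CMP. Reads of epcam numbered 27 and 112 in osteoblasts, 53 and 46 in OMP and 21 and 76 in CMP. Leukocyte genes took 0.0028% to 0.0085% over all libraries, with mpeg1.1 at 0 in each. Endothelial genes took 0.0019% to 0.0039%, with cdh5 and tie1 at 0 in each library. Most endothelial reads were of fli1a, with 89 and 98 in osteoblasts, 133 and 130 in OMP and 176 and 137 in CMP. Heat shock genes took 7.23% to 11.1% of reads in the replicate 2 libraries and 15.7% to 19.4% in those of replicate 1.

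Most of the 38 genes were read at low depth. The median gene had 138 reads over all 6 libraries, with a median of 754 for replication genes and 95 for mitosis genes. On the TPM scale, which corrects for transcript length and library size, pcna, the sliding clamp of the replication fork, stood highest with a mean level of 113.9 over the libraries. The helicase subunit gene mcm2 followed at 27.8 TPM and fen1, the nuclease that trims Okazaki fragments, at 21.1 TPM. The highest mitosis gene per length was aurkb, the kinase of the chromosomal passenger complex, at 5.32 TPM. The lowest gene was cenpe, a kinetochore kinesin, at 0.133 TPM. A filter on low counts kept 32 of the 38 genes for testing, and the other 6 (ccnb2, bub1, birc5a, cenpe, racgap1 and cdc6) had 24 to 43 reads each in all. A gene could pass this filter through 1 group in which it was high, so counts over the 32 genes describe those genes and not the 38.

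Replication genes were summed to compare their joint level between libraries. In CPM, that is reads scaled to library size with TMM factors, the 14 genes together reached 329.7 and 351.4 in osteoblasts (replicates 2 and 1), against 559.7 and 494.6 in OMP and 481.2 and 538.8 in CMP. Both osteoblast libraries lay below all 4 progenitor libraries, and OMP and CMP overlapped. The means were 340.6 ± 15.3 CPM in osteoblasts, 527.1 ± 46.0 in OMP and 510.0 ± 40.7 in CMP (SD, n = 2 each), so the osteoblast sum was 64.6% of that of OMP and 66.8% of that of CMP. Within replicates 2 and 1 the log2 ratio of osteoblasts to CMP was -0.55 and -0.62, and that to OMP was -0.76 and -0.49. In TPM, without TMM factors, the sums were 170.22 and 161.89 in osteoblasts, 371.65 and 278.07 in OMP and 330.67 and 320.26 in CMP. The size of the gap thus depended on the scale used. No p-value is given for these sums. In bulk RNA, fewer cycling cells and less RNA of these genes per cell cannot be told apart. The summed epidermal read share was lowest in osteoblasts and highest in CMP, and its part in these sums and in those of the mitosis genes was not tested.

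Mitosis genes were also at their lowest in osteoblasts, with a wider spread between libraries. The 22 genes together reached 59.4 and 37.95 CPM in osteoblasts, against 113.9 and 71.95 in OMP and 90.02 and 107.5 in CMP (replicates 2 and 1). Again both osteoblast libraries lay below all 4 progenitor libraries, but against OMP, on this TMM-scaled CPM scale, this rested on 1 gene, kif20a. The means were 48.6 ± 15.1 CPM in osteoblasts, 93.0 ± 29.7 in OMP and 98.8 ± 12.4 in CMP (SD, n = 2 each), which put osteoblasts at 52.3% of OMP and 49.3% of CMP. Within replicates 2 and 1 the log2 ratio to CMP was -0.60 and -1.50, and that to OMP was -0.94 and -0.92. Of these sums, kif20a made up 4.12 and 1.64 CPM in osteoblasts, 32.03 and 19.7 in OMP and 12.4 and 10.6 in CMP. Without it, replicate 2 of osteoblasts would not lie below replicate 1 of OMP on this scale. In TPM the mitosis sums of these libraries were 26.4 and 36.8, with kif20a at 1.13 and 6.37. On the TPM scale the order of these libraries would stay without kif20a. The G1 cyclins ccnd1 and ccne2 together had 35.3 and 58.9 CPM in osteoblasts, 42.4 and 57.5 in OMP and 44.3 and 43.5 in CMP, and these groups overlapped.

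**Figure D1:**
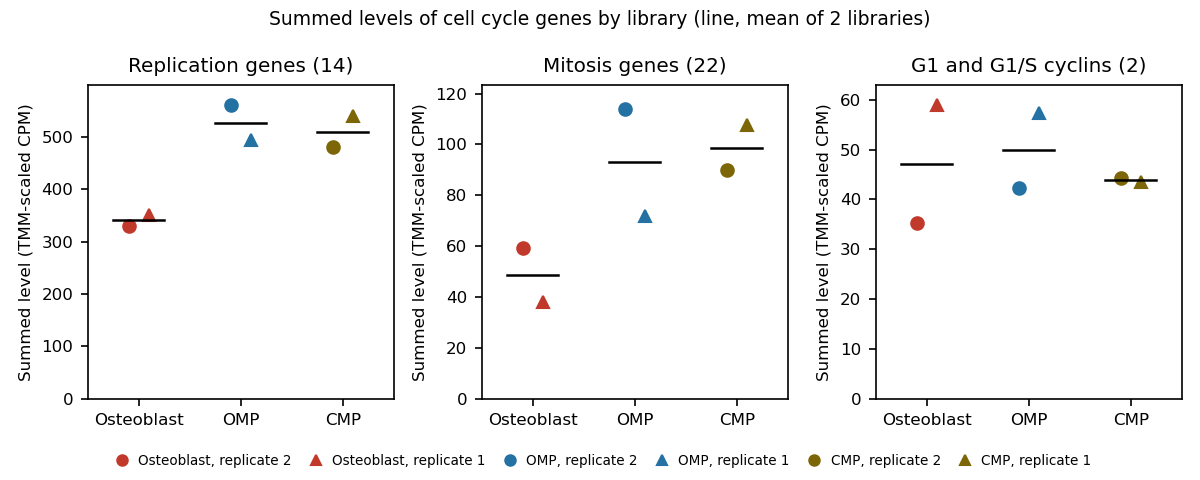
Summed TMM-scaled CPM of the replication, mitosis and G1 cyclin genes in each library (vertical axes from 0), with osteoblasts, OMP and CMP from left to right, circles for replicate 2, triangles for replicate 1 and a line at the mean of 2 libraries. Replication and mitosis sums of both osteoblast libraries lie under those of all 4 progenitor libraries, while the G1 cyclins overlap. The mitosis sums include kif20a, without which osteoblasts and OMP would overlap on this scale.

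Across single genes, the osteoblast mean was the lowest of the 3 groups for 26 of the 38 genes, 12 of 14 for replication and 14 of 22 for mitosis. These counts take in the genes under the filter on low counts, and the same share over all genes was not computed. Few genes passed the test on single genes. A gene was called where edgeR's quasi-likelihood test gave an adjusted p below 0.05 (Benjamini-Hochberg, 13399 genes). Against OMP, 1 of the 32 genes tested was called lower in osteoblasts and none higher, where 4.61% of all genes were called lower. Against CMP no gene of the 32 was called, where 9.55% of all genes were. At an unadjusted p under 0.05, 5 of the 32 genes passed in each of these comparisons (17.1% of all genes against OMP and 19.9% against CMP), and DESeq2 called 2 genes against OMP (9.66% of all genes) and 1 against CMP (11.8% of all genes). Fold changes were below 0 for 26 of 32 genes against either progenitor group, where 51.9% of all genes were below 0 against OMP and 51.1% against CMP. The groups did not overlap, with osteoblasts lower, for 13 of 32 genes against OMP (22.8% of all genes) and 16 of 32 against CMP (25.7% of all genes). The median log2 fold change of the 32 was -0.80 against OMP and -0.89 against CMP, beside -0.03 and -0.02 over all genes. Both comparisons share the osteoblast libraries.

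**Figure D2:**
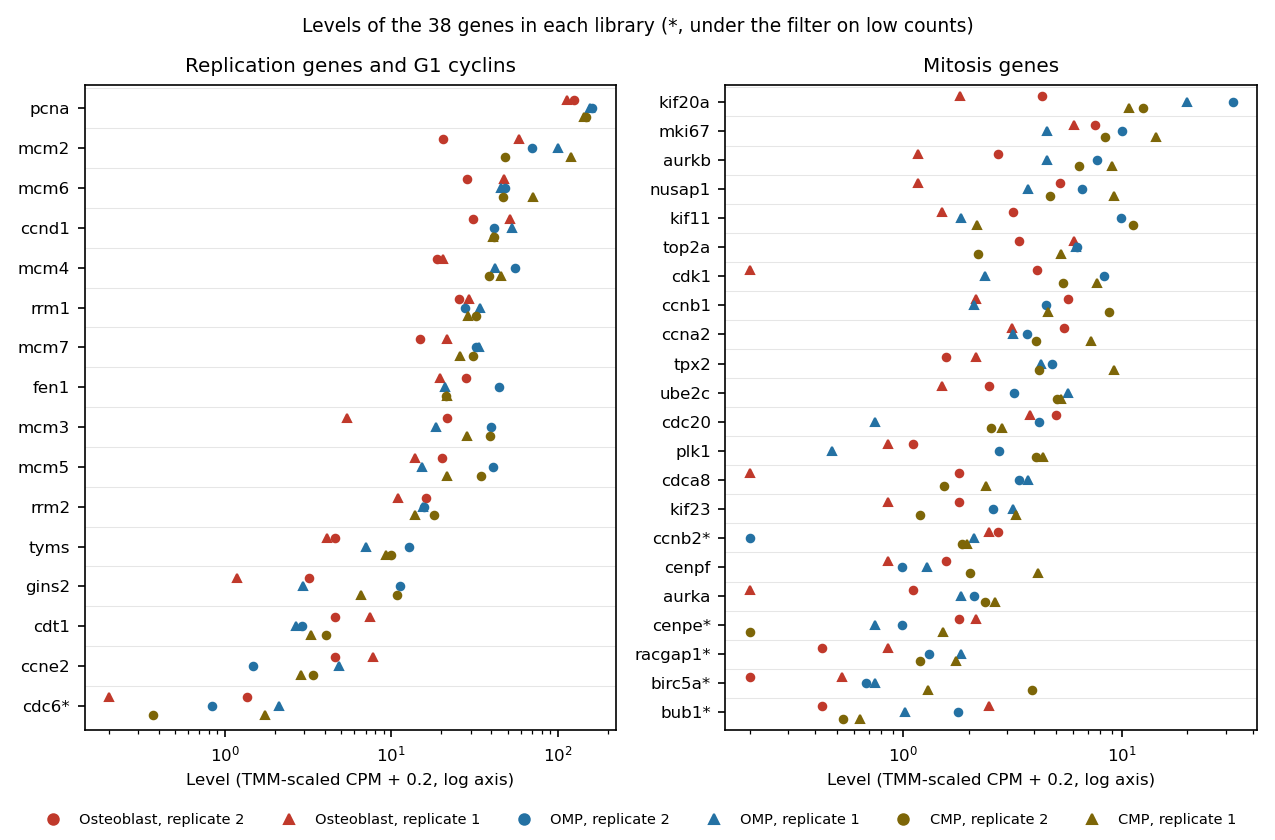
Level of each of the 38 genes in each library on a log axis of TMM-scaled CPM + 0.2, grouped by role, with 1 symbol per library and an asterisk on genes under the filter on low counts. The levels run from pcna at over 100 CPM down to mitosis genes near 1 CPM, and osteoblast symbols are often the leftmost.

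The gene called lower in osteoblasts than in OMP was kif20a, a mitotic kinesin that carries the chromosomal passenger complex to the central spindle for cytokinesis. It had 18 and 5 reads in osteoblasts, against 201 and 72 in OMP and 74 and 48 in CMP (replicates 2 and 1). In CPM this was 4.12 and 1.64 in osteoblasts, 32.03 and 19.7 in OMP and 12.4 and 10.6 in CMP. Its levels did not overlap between any pair of groups, with OMP highest and osteoblasts lowest. The log2 fold change of osteoblasts over OMP was -3.12 (SE 0.55), with an adjusted p of 0.00858 in edgeR with Benjamini-Hochberg adjustment, and the call held without each library in turn (adjusted p 0.00966 to 0.0418). Against CMP it was -1.94 (SE 0.55, edgeR adjusted p = 0.0589), which DESeq2 called at an adjusted p of 0.0293 and the fit with a replicate block at 0.0104. With summed transcripts (edgeR adjusted p = 0.103), only the 4 libraries compared (0.0959) or any library left out it was not called. Only 1 transcript was listed for kif20a, so summing left its own reads unchanged. The log2 fold change of kif20a over CMP was -2.78 to -1.46 when a library was left out. The kif20a gene overlaps cdc23 in a RefSeq annotation of another assembly, and without a stated strand setting the reads of overlapping genes cannot be told apart.

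Among the genes of origin licensing, each of the genes mcm2 to mcm7, which encode the Mcm subunits of the helicase, had its lowest mean in osteoblasts. The mcm4 level was 18.6 and 20.3 CPM in osteoblasts, against 55.0 and 41.9 in OMP and 38.6 and 45.7 in CMP (replicates 2 and 1). The osteoblast libraries were close together and below every progenitor library. Its log2 fold change was -1.32 over OMP (SE 0.34, edgeR adjusted p = 0.0504) and -1.12 over CMP (SE 0.34, edgeR adjusted p = 0.0794), so neither passed the threshold. The value against OMP lay at the threshold: DESeq2 gave an adjusted p of 0.0251 and edgeR's bias-adjusted quasi-likelihood method, added after seeing the data, 0.0444, while leaving out any library gave 0.0905 to 0.272. The mcm3 level was 21.5 and 5.24 CPM in osteoblasts, 39.4 and 18.3 in OMP and 39.0 and 28.3 in CMP, and mcm5 stood at 19.9 and 13.7 in osteoblasts, 40.5 and 15.1 in OMP and 34.3 and 21.4 in CMP. For both, osteoblasts lay below CMP and overlapped OMP. The mcm6 level was 28.2 and 47.4 CPM in osteoblasts, 48.0 and 45.1 in OMP and 46.7 and 70.7 in CMP, with overlap in both comparisons. The mcm7 level was 14.7 and 21.3 CPM in osteoblasts, 31.9 and 33.4 in OMP and 31.0 and 25.6 in CMP, again without overlap (log2 fold change -0.87 over OMP, SE 0.37, edgeR adjusted p = 0.26).

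With the replicate number as a block, edgeR called 5 of the 32 genes lower in osteoblasts than in CMP, where 9.48% of all genes were called lower. These were mcm2 (adjusted p = 0.0188), mcm3 (0.0221), mcm4 (0.0174), gins2 (0.0368) and kif20a, and gins2 encodes a subunit of the GINS complex of the same helicase. Against OMP the blocked fit called 3 genes lower, mcm2 (adjusted p = 0.0118), mcm4 (0.00881) and kif20a (0.000893 in edgeR), where 7.93% of all genes were called lower. Between OMP and CMP it called none of the 32, where 4.64% of all genes were called. The gins2 level was 2.98 and 0.982 CPM in osteoblasts, against 11 and 2.74 in OMP and 10.5 and 6.40 in CMP. Its replicate 2 value was the higher in every group, and the osteoblast value of replicate 2 was above the OMP value of replicate 1.

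Other replication genes act at the fork, in nucleotide supply and in licensing. The pcna level was 124.4 and 113.5 CPM in osteoblasts, 161.1 and 155.9 in OMP and 148.2 and 143.1 in CMP, an ordering without overlap of osteoblasts and progenitors but with a small log2 fold change of -0.29 over CMP (SE 0.27, edgeR adjusted p = 0.666). Of the genes that supply nucleotides, the thymidylate synthase gene tyms had 4.35 and 3.93 CPM in osteoblasts, against 12.6 and 6.84 in OMP and 9.71 and 9.05 in CMP. The ribonucleotide reductase genes rrm1 and rrm2 had log2 fold changes of -0.16 (SE 0.34) and -0.22 (SE 0.41) over CMP. The fen1 level was 28.0 and 19.3 CPM in osteoblasts, 44.0 and 20.8 in OMP and 21.1 and 21.4 in CMP, and the groups overlapped. The licensing factor gene cdt1 ran the other way, with 4.35 and 7.20 CPM in osteoblasts against 2.71 and 2.46 in OMP and 3.85 and 3.09 in CMP (log2 fold change 1.14 over OMP, SE 0.66, edgeR adjusted p = 0.482). The loading factor gene cdc6 had 5 and 0 reads in osteoblasts, 4 and 7 in OMP and 1 and 7 in CMP, too few to test.

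**Figure D3:**
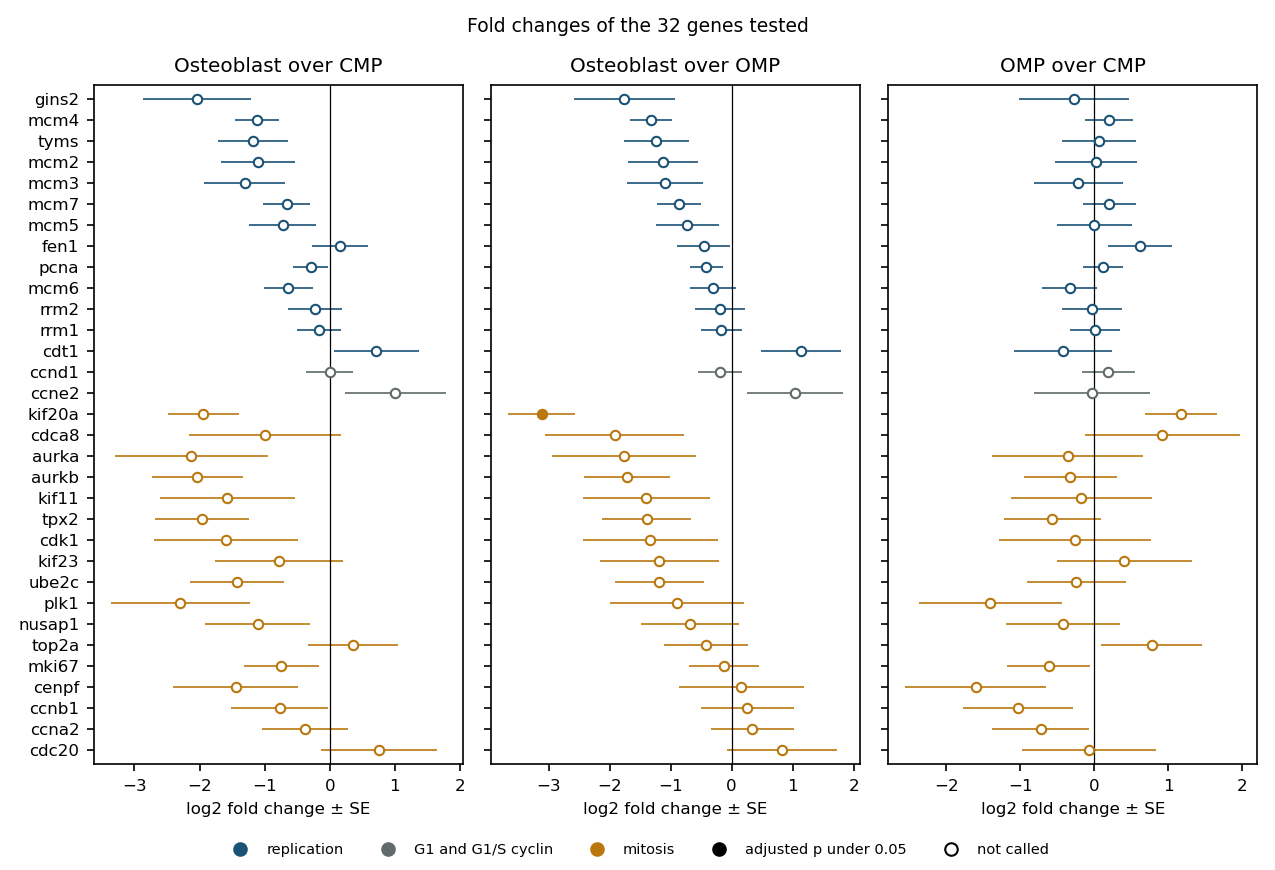
Log2 fold change with SE of the 32 genes tested, for osteoblasts over CMP, osteoblasts over OMP and OMP over CMP (horizontal axes), with filled symbols for an edgeR adjusted p under 0.05. Most symbols of the osteoblast panels lie left of 0, the one that passed is kif20a over OMP at -3.12, and the OMP over CMP panel is spread around 0.

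Mitosis genes had wide errors at their low counts. The Aurora kinase gene aurkb had 2.52 and 0.982 CPM in osteoblasts, against 7.49 and 4.38 in OMP and 6.19 and 8.83 in CMP, with no overlap of osteoblasts and progenitors. Its log2 fold change was -2.04 over CMP (SE 0.70, edgeR adjusted p = 0.122) and -1.71 over OMP (SE 0.70, edgeR adjusted p = 0.24). The spindle assembly factor gene tpx2 had 1.38 and 1.96 CPM in osteoblasts, 4.62 and 4.10 in OMP and 4.02 and 9.05 in CMP (log2 fold change -1.96 over CMP, SE 0.73, edgeR adjusted p = 0.154). For plk1, the Polo kinase of mitotic entry, there were 4 and 2 reads in osteoblasts, 16 and 1 in OMP and 23 and 19 in CMP. The passenger complex gene birc5a (survivin) had 0 and 1 reads in osteoblasts, 3 and 2 in OMP and 22 and 5 in CMP. The mitotic kinase gene cdk1 had 17 and 0 reads in osteoblasts, 51 and 8 in OMP and 31 and 34 in CMP, so the OMP and osteoblast libraries overlapped.

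Other mitosis genes also had few reads. The Aurora A gene aurka, a kinase of spindle poles, had 4 and 0 reads in osteoblasts, 12 and 6 in OMP and 13 and 11 in CMP. The passenger complex gene cdca8 (borealin) had 7 and 0 reads in osteoblasts, 20 and 13 in OMP and 8 and 10 in CMP. In both the osteoblast replicate 1 library had no read. The ubiquitin-conjugating enzyme gene ube2c, of the anaphase-promoting complex, had 2.29 and 1.31 CPM in osteoblasts, 3.03 and 5.47 in OMP and 4.85 and 5.08 in CMP, without overlap of osteoblasts and progenitors. The spindle gene nusap1 had 5.04 and 0.982 CPM in osteoblasts, 6.37 and 3.56 in OMP and 4.52 and 9.05 in CMP, and the groups overlapped. The centralspindlin genes kif23 and racgap1 work together at the spindle midzone. Of these, kif23 had 7 and 2 reads in osteoblasts, 15 and 11 in OMP and 6 and 14 in CMP, and racgap1 had 1 and 2, 7 and 6, and 6 and 7 reads in osteoblasts, OMP and CMP. The kinetochore gene cenpf had 6 and 2 reads in osteoblasts, 5 and 4 in OMP and 11 and 18 in CMP. The proliferation marker gene mki67 had 7.33 and 5.89 CPM in osteoblasts, 9.88 and 4.38 in OMP and 8.20 and 14.1 in CMP, so osteoblasts lay below CMP and overlapped OMP.

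Not every mitosis gene was lowest in osteoblasts. The cyclin A gene ccna2 had 5.27 and 2.95 CPM in osteoblasts, 3.51 and 3.01 in OMP and 3.85 and 7.07 in CMP, and the cyclin B gene ccnb1 had 5.50 and 1.96 in osteoblasts, 4.30 and 1.92 in OMP and 8.53 and 4.42 in CMP. For both, osteoblasts overlapped OMP and CMP, while OMP lay below CMP. The second cyclin B gene ccnb2 had 11 and 7 reads in osteoblasts, 0 and 7 in OMP and 10 and 8 in CMP. The checkpoint kinase gene bub1 had 1 and 7 reads in osteoblasts, 10 and 3 in OMP and 2 and 2 in CMP, and cenpe had 7 and 6, 5 and 2, and 0 and 6 reads in the same order of groups. The mean level of cdc20, the activator of the anaphase-promoting complex, was 4.21 ± 0.86 CPM in osteoblasts, 2.27 ± 2.43 in OMP and 2.496 ± 0.22 in CMP (SD, n = 2 each). The topoisomerase gene top2a, which untangles sister chromatids, had 3.21 and 5.89 CPM in osteoblasts, 6.06 and 6.02 in OMP and 2.01 and 5.08 in CMP. Of the G1 cyclins, ccnd1 had 30.9 and 51.4 CPM in osteoblasts, 41.1 and 52.8 in OMP and 41.2 and 40.9 in CMP, with a log2 fold change of 0.00 over CMP (SE 0.36). The cyclin E gene ccne2, which acts at S phase entry, had 4.35 and 7.53 CPM in osteoblasts, 1.27 and 4.65 in OMP and 3.18 and 2.65 in CMP, so osteoblasts lay above CMP and overlapped OMP (log2 fold change 1.01 over CMP, SE 0.78, edgeR adjusted p = 0.585).

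Between OMP and CMP, none of the 32 genes was called in edgeR, where 1.41% of all genes were, nor in DESeq2 (3.17% of all genes), and 1 passed at an unadjusted p under 0.05 (9.61% of all genes). That gene was kif20a, higher in OMP at a log2 fold change of 1.17 (SE 0.49, edgeR adjusted p = 0.46). The replication sum of OMP was 103% of that of CMP, and the log2 ratio was 0.22 within replicate 2 and -0.12 within replicate 1. For mitosis genes it was 94.1%, with log2 ratios of 0.34 and -0.58, so the direction turned between the replicates. The median SE of the 32 log2 fold changes was 0.66, with 0.43 for replication genes and 0.77 for mitosis genes. Differences of these sizes could not be told from the spread between these libraries.

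The replicate numbers were then compared over the 3 groups, with group in the fit. Of the 32 genes, 1 was called lower and 1 higher in the replicate 2 libraries, where 4.60% of all genes were called lower and 1.28% higher. The mcm2 level was 20.2 CPM in replicate 2 against 58.6 in replicate 1 of osteoblasts, 70.0 against 100.9 in OMP, and 48.2 against 120.1 in CMP. It was lower in replicate 2 in every group (log2 fold change -1.11, SE 0.22, edgeR adjusted p = 0.0248), and the call held in 5 of 6 fits that left out a library (edgeR adjusted p 0.0076 to 0.0549), being lost without replicate 2 of osteoblasts. The spindle kinesin gene kif11, whose product pushes the spindle poles apart, had 13 reads in replicate 2 against 4 in replicate 1 of osteoblasts, 61 against 6 in OMP and 66 against 9 in CMP. It was higher in replicate 2 in every group (log2 fold change 2.17, SE 0.53, edgeR adjusted p = 0.0482), and the call held in the 2 of 6 such fits that left out an osteoblast library (edgeR adjusted p 0.0244 to 0.269) and was lost without any library of OMP or CMP. DESeq2 gave no adjusted p by number to 18 of the 32 genes, kif11 among them. With summed transcripts both calls were lost (edgeR adjusted p 0.104 for mcm2 and 0.0771 for kif11), as they were with the number as the only term (0.471 and 0.27 in edgeR). Only 1 transcript was listed for mcm2, so summing left its own reads unchanged. At an unadjusted p under 0.05 there were 6 of 32 genes, and 24.1% of all genes.

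No other Mcm gene was called by number in edgeR. The log2 fold change of replicate 2 over replicate 1 was 1.09 for mcm3 (SE 0.30, edgeR adjusted p = 0.0634), which DESeq2 called at an adjusted p of 0.0378. It was 0.89 for mcm5 (SE 0.25, edgeR adjusted p = 0.0704) and -0.42 for mcm6 (SE 0.21, edgeR adjusted p = 0.268). For mcm4 the numbers lay close together, with a log2 fold change of 0.02 (SE 0.21). Chosen after its values were seen, the share of mcm2 among the reads of mcm2 to mcm7 was 16.4% in replicate 2 of osteoblasts (95% Wilson interval 13.5% to 19.8%), against 35.2% in replicate 1 (31.1% to 39.4%). In OMP it was 24.6% (22.6% to 26.6%) in replicate 2 against 39.6% (36.5% to 42.8%) in replicate 1, and in CMP 20.3% (18.3% to 22.4%) against 38.5% (36.0% to 41.1%). These intervals cover counting error only. The heat shock read share also differed by number, 7.23% against 15.7% in osteoblasts, 7.31% against 19.4% in OMP and 11.1% against 17.5% in CMP (replicate 2 against 1), and its part in these differences was not tested. The mcm2 gene overlaps several genes, s1pr4 among them, in the RefSeq annotation.

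**Figure D4:**
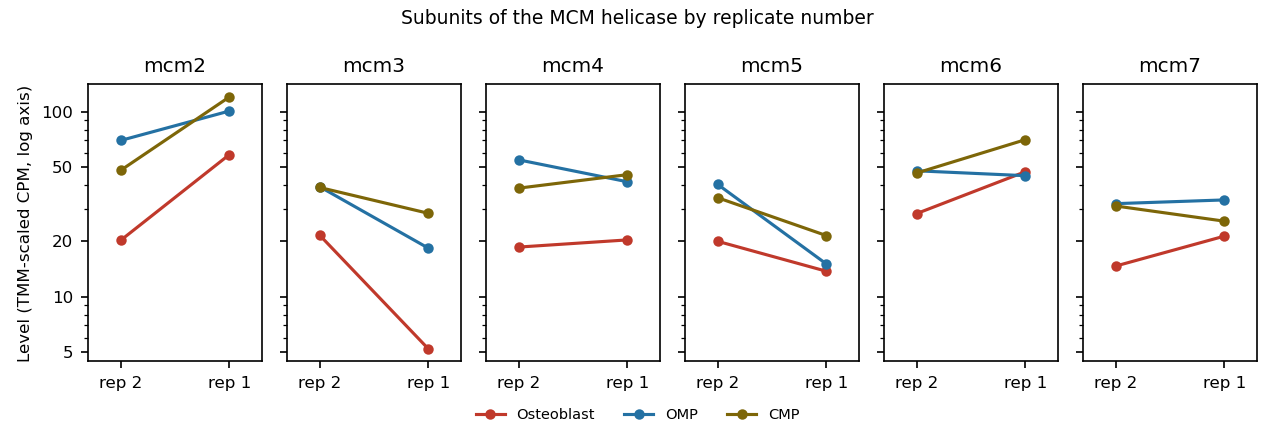
TMM-scaled CPM of mcm2 to mcm7 in replicate 2 and replicate 1 of each group on a log axis, with lines joining the libraries of a group. Replicate 2 lies under replicate 1 for mcm2 in every group (20.2 against 58.6 CPM in osteoblasts) and above it for mcm3 and mcm5.

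Other genes of the cell cycle were counted from lists of 49 further replication genes, 75 further mitosis genes and 55 genes of G1 control and cell cycle inhibition. Of the 43 further replication genes tested, none was called between the cell groups by edgeR with group as the only term. At an unadjusted p under 0.05 there were 2 for osteoblasts against CMP (19.9% of all genes) and 3 for osteoblasts against OMP (17.1% of all genes). For OMP against CMP there were 0 (9.61% of all genes). DESeq2 called pold1 against CMP only (11.8% of all genes). The gene pold1, the catalytic subunit of DNA polymerase delta, had 3 and 3 reads in osteoblasts, against 17 and 15 in OMP and 38 and 26 in CMP. Its log2 fold change was -2.84 over CMP (SE 0.77, edgeR adjusted p = 0.051), and -3.08 to -2.58 when a library was left out. This adjusted p lay at the threshold: edgeR called pold1 with the replicate block (0.0335), without the filter on low counts (0.0302), with upper-quartile scaling (0.0492) and under 6 of the 7 settings added after seeing the data (0.0336 to 0.049). It was not called in edgeR with DESeq2's size factors (0.053), with only the 4 libraries compared (0.0507) or with any library left out. With summed transcripts the log2 fold change of pold1 was -1.65 (edgeR adjusted p = 0.243). Of the 40 further mitosis genes tested, 1 was called lower in osteoblasts than in CMP (9.55% of all genes called) and none against OMP. There 6 passed at an unadjusted p under 0.05 (17.1% of all genes) and DESeq2 called none, and with the replicate block 2 were called lower than in CMP (9.48% of all genes). The one called was foxm1, a transcription factor of G2 and M phase genes, with 0 reads in both osteoblast libraries, against 6 and 4 in OMP and 17 and 19 in CMP. Against a floor of 3 reads over the osteoblast group it was at least 8.48-fold lower than in CMP (edgeR adjusted p = 0.0326, DESeq2 adjusted p = 0.0164), and the edgeR call was lost without any one of the libraries (adjusted p 0.0578 to 0.198). The spindle checkpoint kinase gene bub1ba also had 0 reads in both osteoblast libraries, against 13 and 6 in OMP and 16 and 3 in CMP. It was not called (edgeR adjusted p = 0.119 over OMP and 0.111 over CMP), although with summed transcripts edgeR called bub1ba lower in both (0.0191 over OMP and 0.016 over CMP). Summing counts a read shared between transcripts more than once, and the part of this in the summed results was not tested. Next by p were the primase gene prim2 at -1.29 over CMP (edgeR adjusted p = 0.163), the origin recognition gene orc1 at -2.25 over OMP (edgeR adjusted p = 0.195) and the condensin gene smc4 at 1.61 over OMP (edgeR adjusted p = 0.126). The median log2 fold change over CMP was -0.41 for the 43 of 49 further replication genes tested, beside -0.02 over all genes. It was -0.65 for the 40 of 75 further mitosis genes tested. A gene could pass the filter through 1 group in which it was high, so these medians describe the genes tested and not the lists.

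Of the 46 G1 control genes tested, 1 was called lower and none higher in osteoblasts than in CMP (9.55% of all genes called), and 1 lower and 1 higher than in OMP (4.61% of all genes lower and 2.72% higher). The gene gas1a, a membrane protein named for growth arrest and also a co-receptor of Hedgehog signals, had 131 and 63 reads in osteoblasts, 747 and 583 in OMP and 1360 and 959 in CMP. It fell by 3.11 on the log2 scale against CMP (SE 0.34, edgeR adjusted p = 0.000528) and by 2.45 against OMP (SE 0.33, edgeR adjusted p = 0.00223), and both calls held without each library in turn. The Cdk inhibitor gene cdkn1ca (p57) had 42 and 24 reads in osteoblasts, 0 and 0 in OMP and 7 and 9 in CMP. Against a floor of 3 reads over OMP it was at least 29.4-fold higher in osteoblasts (edgeR adjusted p = 0.00623), a call that held without each library in turn. Over CMP its log2 fold change was 2.47 (edgeR adjusted p = 0.0923). There edgeR called cdkn1ca with only the 4 libraries compared (0.0497). It also did so with the bias-adjusted quasi-likelihood method, added after seeing the data (0.0458, and 0.0436 with robust estimation). Neither DESeq2 (adjusted p = 0.077) nor edgeR with the replicate block (0.066) called it. The stress gene gadd45ba was at 0.98 over CMP (SE 0.28, edgeR adjusted p = 0.0666), and DESeq2 called it higher. With the replicate block edgeR called gadd45ba higher in osteoblasts than in CMP (adjusted p = 0.00438) and than in OMP (0.0241), and ccng1 higher than in OMP (0.0368). The block thus gave 1 G1 control gene higher than in CMP (7.07% of all genes) and 3 higher than in OMP (5.16% of all genes), with gas1a lower in both. Between OMP and CMP the main edgeR fit and DESeq2 called no gene of the 3 lists. At an unadjusted p under 0.05 there were 2 (9.61% of all genes), both of G1 control. These were cdkn1ca, with the reads above (edgeR adjusted p = 0.123), and gas1b at -0.86 (SE 0.38, edgeR adjusted p = 0.512). Without the filter on low counts edgeR called cdkn1ca lower in OMP than in CMP (adjusted p = 0.0168). The further genes with the smallest p there were dbf4, of the kinase that fires origins, with 0 and 3 reads in OMP against 16 and 17 in CMP, orc6 at 1.21 (edgeR adjusted p = 0.744), the condensin gene ncapg at -1.53 (edgeR adjusted p = 0.551) and foxm1 at -1.76 (edgeR adjusted p = 0.693).

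By replicate number, 1 of the 46 G1 control genes was called higher and 7 lower in replicate 2 (1.28% of all genes higher and 4.60% lower). Those with the smallest p were cdkn1a (p21, a Cdk inhibitor induced by p53), at -1.10 (SE 0.16, edgeR adjusted p = 0.00777), gadd45bb, a stress-induced growth arrest gene, at -1.37 (SE 0.20, edgeR adjusted p = 0.00777), ccng1, a cyclin induced by p53, at -0.82 (SE 0.14, edgeR adjusted p = 0.0122), and tob1b, an antiproliferative gene, at -1.11 (SE 0.21, edgeR adjusted p = 0.0205). Without replicate 1 of OMP none of these 4 calls held (edgeR adjusted p 0.0618 for cdkn1a, 0.0695 for gadd45bb, 0.12 for ccng1 and 0.123 for tob1b), and without replicate 2 of OMP those of ccng1 (0.0906) and tob1b (0.0738) were lost in edgeR. With summed transcripts all 4 calls were lost (edgeR adjusted p 0.0547 for cdkn1a, 0.0626 for gadd45bb, 0.0635 for ccng1 and 0.0988 for tob1b), and with the number as the only term edgeR gave these genes 0.241 to 0.355. The cdkn1a reads were 289 in replicate 2 against 503 in replicate 1 of osteoblasts, 454 against 583 in OMP and 583 against 800 in CMP. Of the further mitosis genes, cdc25b, a phosphatase that activates Cdk1, was called lower in replicate 2 (-0.96, SE 0.20, edgeR adjusted p = 0.0299), a call lost without replicate 1 of OMP (0.0587) or either library of osteoblasts (0.0739 without replicate 1 and 0.0921 without replicate 2), with summed transcripts (0.112) or with the number as the only term (0.284). None of the further replication genes was called by number in edgeR, 5 passed at an unadjusted p under 0.05 (24.1% of all genes), and DESeq2 called none of those it gave an adjusted p (23 had none). The smallest p among them were those of rpa2, of the single-strand binding protein (0.72, SE 0.20, edgeR adjusted p = 0.0654), and of the origin recognition gene orc3 (1.29, SE 0.38, edgeR adjusted p = 0.0763). The checkpoint gene bub3 was at 0.81 (SE 0.25, edgeR adjusted p = 0.0862).

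**Figure D5:**
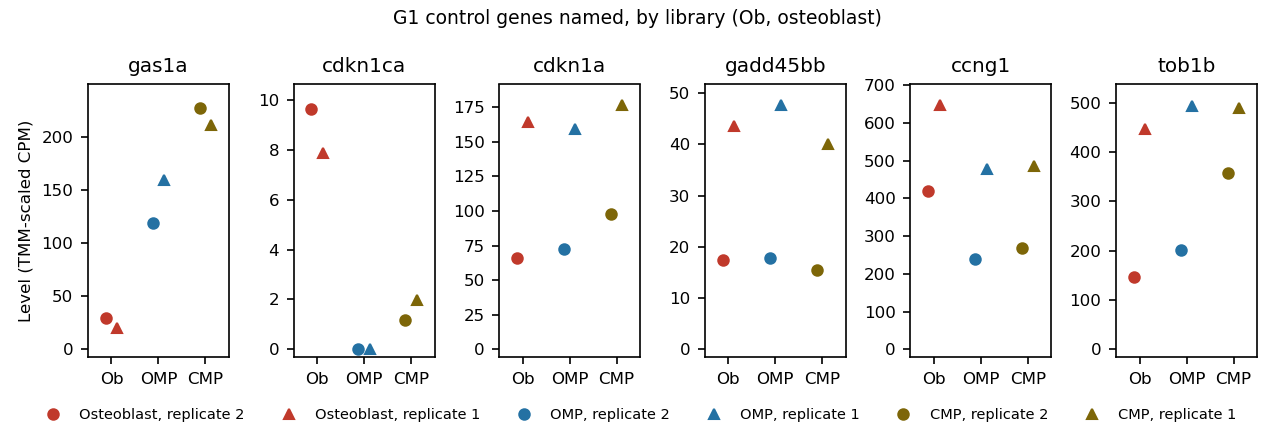
TMM-scaled CPM of the 6 G1 control genes named above that the main edgeR fit called in a comparison, by library (a linear vertical axis for each gene), with circles for replicate 2 and triangles for replicate 1. The gas1a symbols of osteoblasts lie under those of OMP and CMP, and cdkn1ca is at 0 in both OMP libraries.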

How the data were processed

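RNA of 6 sorted libraries was aligned with HISAT2 2.2.1 and counted with featureCounts 2.0.3 on build GRCz11, per the submitters' processing notes. How strand was set in counting is not stated in the labels. The authors deposited 1 table with counts, RPKM values and TPM values per RefSeq transcript and the transcript lengths. Of its 75811 rows, 2 with empty cells were left out. A read shared between transcripts is listed for each of them, so the highest transcript stood for the gene. Where transcripts were summed as an alternative, such reads counted more than once. The deposited counts were tested. The deposited TPM values were used only to compare levels between genes and for the sums given in TPM. The authors' RPKM values were not used. RefSeq assembly GRCz12tu served for overlapping gene names only, and 16 of the 38 genes overlap another gene there.

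Tests used R 4.3.3 with edgeR 4.0.16 (TMM, filterByExpr by group, quasi-likelihood test with its default method, two-sided, Benjamini-Hochberg adjustment over 13399 genes, threshold 0.05), with 1 fit of all 6 libraries and group as the only term (3 residual degrees of freedom, biological coefficient of variation 0.377). The replicate comparison added the replicate number (2 residual degrees of freedom). SE is the fold change over the square root of F. DESeq2 1.42.0 was an alternative. The code was tested on simulated data.

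The genes, lists and tests were chosen with earlier results of these data known. All 38 genes are covered by rule; further genes are named by smallest p within a list. After results were seen, the bias-adjusted quasi-likelihood method was tried as the main fit, because it gives the counts of an earlier analysis; since the design named no method, the default that had been run first was kept, and every setting tried is an alternative. Same-numbered libraries deviated together (r = 0.296 to 0.382 across genes over the 3 pairs of groups), which was taken as pairing, with the blocked results already known; each comparison holds only 2 numbers. A planned promoter motif search was not run, because promoter sequences were not used here.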

Additional observations from a re-analysis of the deposited data

How the results depend on the processing

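No fold change that had been called turned its direction under any alternative run. Of 4149 values of the 53 named genes that passed the filter on low counts, under these alternatives, 4067 kept their side of the threshold, 46 gained a call and 36 lost one. A value called in neither fit counts as kept. Most of the 212 pairs of gene and comparison were not called, so the 4067 does not measure how stable the calls were. The number of the 32 genes called, 0 for osteoblasts against CMP, was 1 with DESeq2, 1 without the filter on low counts and 5 with the replicate block, and 0 to 1 when a library was left out (mcm3 at 0.0426 in edgeR without replicate 2 of osteoblasts). Against OMP it was 1, and 2 with DESeq2, without the filter, with the bias-adjusted quasi-likelihood method (robust or not) and with TMM before the filter (robust or not), in each case with mcm4 as the second gene, and 3 with the block. The settings for the bias-adjusted method, robust estimation, 1 common dispersion, TMM before the filter and the 100 most abundant genes left out of the scaling were chosen after seeing the data. By replicate number the count was 2, with 1 under DESeq2's size factors and without the 100 most abundant genes, 4 without the filter, 0 with summed transcripts, 0 with the number as the only term, and 1 to 3 when a library was left out.

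Over all genes, 189 were called for OMP against CMP, with 425 in DESeq2, 585 without the filter, 58 with summed transcripts, 622 with the block and 8 (without replicate 2 of CMP, and under 100 without any 1 of the other CMP or OMP libraries) to 252 when a library was left out. For osteoblasts against CMP 1280 were called, with 2217 under the block and 734 (without replicate 2 of CMP) to 1339 when a library was left out, with 817 without replicate 2 of osteoblasts and 845 without replicate 1 of CMP. Against OMP 983 were called, with 1553 without the filter, 1754 with the block and 573 (without replicate 2 of osteoblasts) to 876 when a library was left out. By number 789 were called, with 1684 without the filter, 100 with summed transcripts, 0 with the number as the only term and 96 (without replicate 1 of OMP), 247 (without replicate 2 of OMP) or 495 (without replicate 2 of osteoblasts) to 1410 (without replicate 1 of CMP) when a library was left out.

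The log2 ratio of summed mitosis genes for osteoblasts over OMP, -0.93, was -0.911 with DESeq2's size factors and with upper-quartile scaling, -0.724 with summed transcripts, -0.962 with TMM before the filter, -0.908 without the 100 most abundant genes, and -1.267 to -0.567 when a library was left out. That of replication genes over CMP, -0.58, was -0.525 with summed transcripts and -0.658 to -0.492 when a library was left out, and that of all 38 genes -0.658 to -0.49. The cause of these changes was not tested. With a library left out, an arm of 1 library is assumed to vary like the others. Mitosis genes had a median of 95 reads over the 6 libraries, and how far depth limits their calls was not tested.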
